A study of Mus musculus with 8 samples.

Results

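Young Dnmt1-deleted cortical cells were set against older cells with intact Dnmt1. The comparison was KO at 6 months (2 libraries) against WT at 18 months (2 libraries), chosen by sample title, which makes 4 of the 8 RNA-seq libraries of the study. WT at 6 months (2 libraries) served as the reference from which both groups could have shifted, and KO at 18 months (2 libraries) was used for a second comparison with no shared library. All mice carried Cre recombinase under control of the parvalbumin locus (PV-Cre) and a tdTomato reporter on a C57BL/6 background. WT mice had wild-type Dnmt1, and KO mice had the Dnmt1 loxP2 allele, in which loxP sites flank exons 4 and 5, from a B6;129Sv stock. Cells with the red reporter were sorted from dissociated cortical hemispheres, and total RNA was sequenced. The design text gives 2 technical replicates per group and cells pooled from 6 WT and 6 KO mice, so p-values measure the spread between libraries, which may be technical; they do not measure how animals vary. Genotype and age both differ between KO at 6 months and WT at 18 months, and their shares in a difference cannot be told apart in this comparison. The question was how far the young KO resembled the older WT, and which genes still differed between them.

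Dnmt1 encodes the methyltransferase that copies CpG methylation onto new DNA strands and is also expressed in neurons that no longer divide. Parvalbumin interneurons are fast-spiking GABA-releasing cells of the cortex. With age, the rodent cortex is known to accumulate myelin and to raise complement and other reactive genes in glia, while genes of synapses and of vessel walls have often been described as lower.

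Total counts were between 8481613 and 13551218 per library in the 4 libraries compared and between 6008175 and 12489638 in the other 4. Levels are given as CPM, the read count relative to the TMM-scaled library total, and a gene was called when edgeR's quasi-likelihood F test gave a Benjamini-Hochberg adjusted p under 0.05 over the 18205 genes tested. Across genes, both libraries of a group correlated at 0.976 to 0.992 on the log2 scale. Replicates differed by 2.72 to 5.37 times the counting noise per gene, so none was 1 library deposited again. The rRNA-like transcript Gm26917 took 4.19% and 4.98% of counts in the young KO, 2.7% and 3.06% in the older WT, and 9.97% and 9.29% in WT at 6 months. Mitochondrial rRNA took 6.15% and 4.32%, 4.3% and 2.68%, and 1.04% and 0.672%, in the same order of groups.

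The targeted gene was not called between KO at 6 months and WT at 18 months, although its libraries did not overlap. Dnmt1 (ENSMUSG00000004099, chromosome 9, 20907209 to 20959888 on the minus strand in mm10) was at 77.2 and 75.2 CPM in the young KO and at 80.8 and 81.1 CPM in the older WT. It was at 97.9 and 104 CPM in WT at 6 months and at 74.3 and 76.6 CPM in KO at 18 months, so every KO library was below every WT library, and the young WT was highest. Between KO at 6 months and WT at 18 months the log2 fold change was -0.09 (95% interval -0.23 to 0.06, adjusted p = 0.384). Counts over the whole gene do not show the loss of exons 4 and 5. The methyltransferases that set new methylation, Dnmt3a (log2 fold change 0.12, adjusted p = 0.124) and Dnmt3b (0.31, adjusted p = 0.391), were not called either.

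The label of the sorted cells was checked against 17 lists of cell type markers. Pvalb, which encodes parvalbumin, had 0 reads in KO at 6 months and 4 reads in WT at 18 months. Of the 20 markers of parvalbumin interneurons, 16 had enough reads to be tested and 8 reached 10 CPM in each of the 2 groups. The list summed to 689 ± 6.25 CPM in KO at 6 months and 770 ± 27.1 CPM in WT at 18 months (SD, n = 2). Its members parted from this sum: 7 of the 16 tested were higher in the young KO and 3 lower, with a median log2 fold change of 0.46. How much of the sum came from parvalbumin interneurons was not tested. Markers of other cells were present in all 4 libraries. The sum over oligodendrocyte markers was 33113 ± 701 CPM in the young KO and 44065 ± 112 CPM in the older WT. For astrocyte markers it was 14634 ± 77.1 and 10543 ± 10.7 CPM, and for pericyte and smooth muscle markers 3297 ± 78.5 and 1582 ± 43.6 CPM. All values come from such a mixture of RNA, in which fewer cells of a type and less RNA per cell cannot be told apart.

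**Figure D1:**
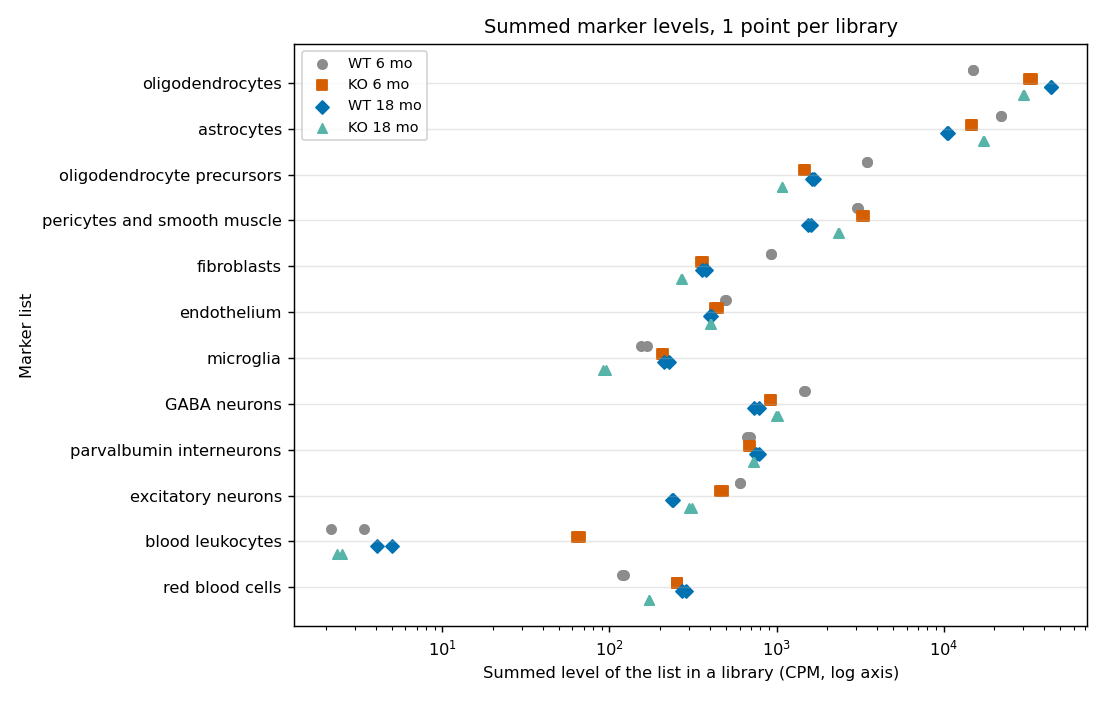
Summed level of 12 marker lists in each library, in CPM on a log axis, with 1 point per library and 2 libraries per group. Oligodendrocyte sums of KO at 6 months (33113 CPM on average) lay between WT at 6 months (14951 CPM) and WT at 18 months (44065 CPM), and leukocyte sums of KO at 6 months (65.2 CPM) lay above all other groups; lists of different genes are not compared with each other.

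KO at 6 months was closer to WT at 18 months than to WT at 6 months. In KO at 6 months against WT at 18 months, 6126 genes were called, 33.7% of those tested, and 1478 of them differed by at least 2-fold. Against WT of its own age the young KO differed at 7067 genes (38.8%, with 19.2% higher and 19.6% lower), 1940 of them by at least 2-fold (4.77% higher and 5.88% lower). WT at 18 months against WT at 6 months gave 10748 genes (59%, with 28.2% higher and 30.8% lower), 5099 of them by at least 2-fold (9.63% higher and 18.4% lower). The median absolute log2 difference over all genes tested was 0.30 in the first comparison, 0.38 in the second and 0.60 in the third. Library correlations across genes ordered the groups the same way, at 0.964 to 0.971, 0.945 to 0.951 and 0.901 to 0.911. KO at 6 months was about as far from KO at 18 months (5775 genes, 31.7%, median 0.28) as from WT at 18 months. In that pair 17.9% of genes were higher and 13.8% lower in the young KO, 6.54% and 1.48% by at least 2-fold. KO against WT at 18 months gave 5844 genes (32.1%, with 14.7% higher and 17.4% lower), 3.92% higher and 1.47% lower by at least 2-fold. These comparisons share libraries, and no test was made of the difference between their counts.

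**Figure D2:**
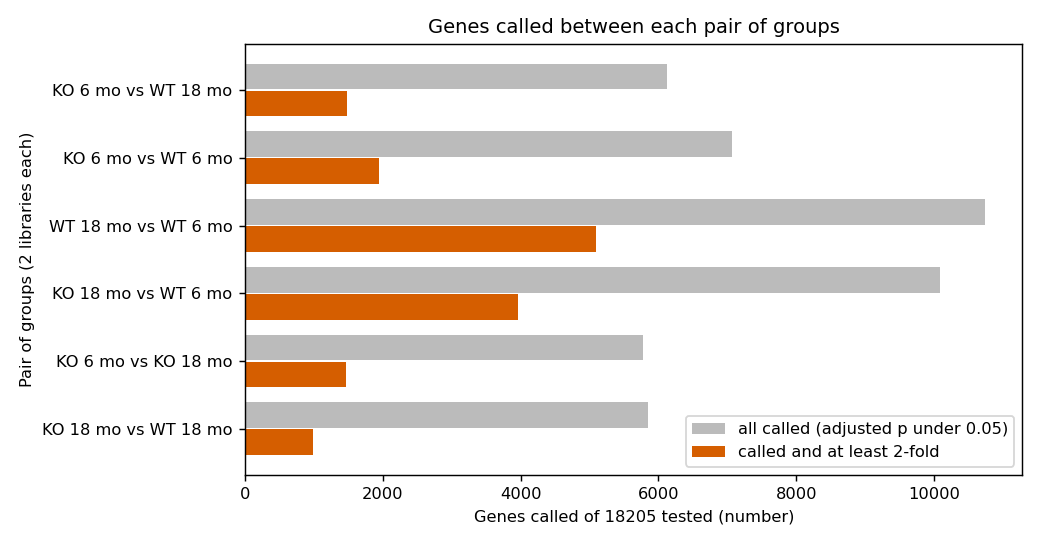
Genes called between each pair of the 4 groups (bars from 0, number of genes of 18205 tested), all calls in grey and calls of at least 2-fold in orange. The 3 pairs without WT at 6 months gave 5775 to 6126 calls, and the pairs with it gave 7067 to 10748.

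Resemblance within this comparison was also read from intervals. Of the 12079 genes not called, 8186 (67.8%) had a 95% interval of the fold change that lay within 2-fold in both directions. Over all genes, 11891 (65.3%) had such an interval. Among the 6126 called genes, 4648 (75.9%) differed by less than 2-fold. For the remaining genes the interval reached or lay beyond 2-fold, and those with an interval wholly beyond 2-fold were not counted apart.

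The calls were uneven in size. In KO at 6 months, 3265 genes were higher (17.9%) and 2861 lower (15.7%) than in WT at 18 months. Of these, 1351 (7.42%) were higher and 127 (0.698%) lower by at least 2-fold. Without KO replicate 2 at 6 months the lower calls fell to 1713, and without WT replicate 2 at 18 months to 1883. Genes of at least 2-fold had low levels in both directions, with a median mean level of 4.86 CPM for the higher and 3.49 CPM for the lower, against 13.2 CPM over all genes tested. Protein-coding genes made up 84% of the higher and 48.8% of the lower ones, against 75.6% of all genes tested.

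**Figure D3:**
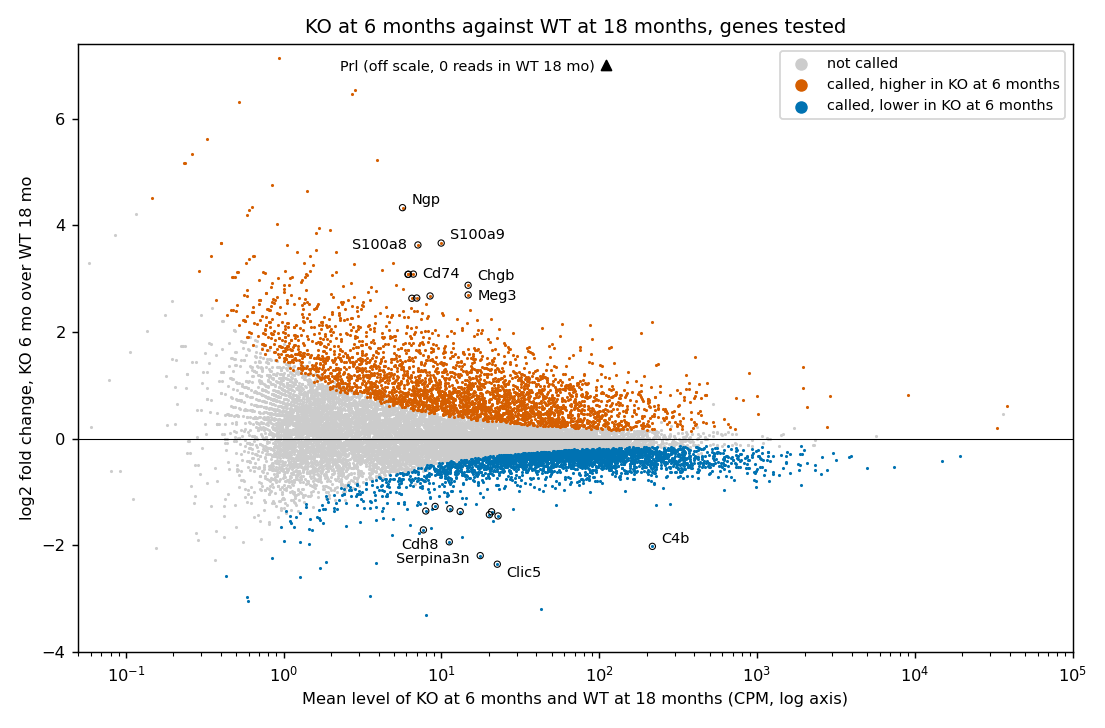
Log2 fold change of KO at 6 months over WT at 18 months against the mean level of the 4 libraries (CPM, log axis), 1 point per gene, called genes in orange (higher, 3265) and blue (lower, 2861). Rings mark the named genes with the largest folds; Prl is drawn off scale because WT at 18 months had 0 reads.

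Prl, the pituitary hormone prolactin, showed the largest difference. It had 1910 and 1843 reads (219 and 220.0 CPM) in the libraries of KO at 6 months and 0 reads in both libraries of WT at 18 months. Set against a floor of 3 reads over the WT group, Prl was at least 1533-fold higher (adjusted p = 2.37e-20). WT at 6 months also had 0 reads, and KO at 18 months had 699 and 680, so only the KO libraries held the transcript. Other pituitary markers were checked beside it: Gh, Lhb, Fshb and Cga, hormone genes of that gland, had 0 reads in all 4 libraries compared. Pomc, the precursor of corticotropin, was at 3.78 and 5.01 CPM against 0.627 and 0.77 CPM (log2 fold change 2.60, SE 0.378, adjusted p = 6.59e-06). Pou1f1, the activator of the prolactin gene, had 13 reads against 2 (ratio 7.97, exact 95% interval 1.8 to 72.7). Of the 23 pituitary markers 8 were tested, and 6 of these were higher, the dense-core vesicle genes Chgb and Scg2, which neurons also express, among them. Against WT at 6 months 4 of the 8 were higher in the young KO and 3 lower. Neuron markers moved with Chgb and Scg2, and their part was not tested. The part of pituitary cells in the Prl values was not tested.

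The promoter of Prl is shown with those of Serpina3n and Clic5, the 2 named lower genes with the largest folds, because Dnmt1 acts on CpG sites. Each is the 250 bases before the start site of the RefSeq gene in build GRCm38.p6, 5′ to 3′ on the strand of the gene, with CpG sites in capitals. They lie at chr13:27057320-27057569 (plus strand), chr12:104406458-104406707 (plus strand) and chr17:44188322-44188571 (plus strand).
Prl: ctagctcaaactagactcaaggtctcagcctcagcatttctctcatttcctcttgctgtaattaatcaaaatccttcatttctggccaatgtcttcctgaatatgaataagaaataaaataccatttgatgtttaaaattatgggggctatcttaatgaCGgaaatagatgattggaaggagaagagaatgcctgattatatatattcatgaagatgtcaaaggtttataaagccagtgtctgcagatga
Serpina3n: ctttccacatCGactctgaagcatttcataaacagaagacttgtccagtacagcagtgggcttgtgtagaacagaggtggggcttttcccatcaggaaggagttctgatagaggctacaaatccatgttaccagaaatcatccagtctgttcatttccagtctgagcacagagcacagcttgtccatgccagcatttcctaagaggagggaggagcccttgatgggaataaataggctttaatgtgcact
Clic5: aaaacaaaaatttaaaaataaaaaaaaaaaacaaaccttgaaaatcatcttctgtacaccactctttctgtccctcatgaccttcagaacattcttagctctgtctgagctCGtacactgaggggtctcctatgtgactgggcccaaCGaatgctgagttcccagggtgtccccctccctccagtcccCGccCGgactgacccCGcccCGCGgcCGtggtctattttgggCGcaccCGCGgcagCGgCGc
The Prl and Serpina3n stretches each hold 1 CpG site, and that of Clic5 holds 13. Over the 32851 promoters of the table the median was 6, and 18.8% held at most 1. The letters TATNCAT, searched on both strands as a core of sites bound by the pituitary factor Pou1f1, occurred at 2 places upstream of Prl and at none upstream of the other genes; 7.92% of all promoters of this length hold them. Only 64.1% of the genes tested matched an entry by symbol, so CpG content was not compared between sets of called genes. No methylation was measured in these libraries.

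Neutrophil transcripts were also far higher in the young KO. S100a9 was at 20.4 and 16.5 CPM in KO at 6 months and 1.76 and 1.23 CPM in WT at 18 months, and S100a8, its partner in calprotectin, at 13.2 and 13.1 against 1.00 and 1.08 CPM. Their log2 fold changes were 3.67 (SE 0.26, adjusted p = 1.26e-10) and 3.63 (SE 0.302, adjusted p = 1.62e-09). Ngp, a protein of neutrophil granules, was at 10.8 and 10.9 CPM against 0.502 and 0.539 CPM. Camp, the cathelicidin of the same granules, had 97 reads against 1 (ratio 119, exact 95% interval 20.8 to 4743). All 8 leukocyte markers with enough reads to test were higher, with a median log2 fold change of 3.85, against 0.0057 over all genes. The other 8 of the 16 markers were too low to test, and among them Cd3e, Ms4a1 and Ly6g had 0 reads in WT at 18 months and 1 to 3 reads in KO at 6 months. The list summed to 65.2 ± 2.38 CPM in KO at 6 months, 4.55 ± 0.662 CPM in WT at 18 months, 2.78 ± 0.899 CPM in WT at 6 months and 2.42 ± 0.134 CPM in KO at 18 months. KO at 6 months stood alone in this list, so here it resembled none of the other groups. Of 8 red blood cell markers 6 were higher and 2 lower, while their sum was 254 ± 1.29 CPM in the young KO and 278 ± 9.89 CPM in the older WT. Hbb-bs, a beta-globin gene, was at 69.5 and 75.0 CPM against 29.6 and 21.2 CPM (log2 fold change 1.54, SE 0.119, adjusted p = 5.53e-10), and Bpgm, which regulates oxygen release in red cells, was lower (-0.65). Globin genes have near-identical copies, and the counting of reads with several matches was not given in the sources used here. The part of blood cells in these values was not tested.

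Genes of vessel walls were higher in the young KO. Myh11, the heavy chain of smooth muscle myosin, was at 366 and 345 CPM in the young KO and at 78.0 and 78.4 CPM in the older WT. The groups did not overlap, and the log2 fold change was 2.18 (SE 0.064, adjusted p = 2.67e-17). Acta2, smooth muscle actin, was at 288 and 302 against 73.9 and 76.0 CPM (1.97, SE 0.0677, adjusted p = 4.65e-16). Notch3, the Notch receptor of mural cells (1.70), Pdgfrb, the receptor that recruits pericytes (1.38), and Rgs5, a regulator of G-protein signalling in pericytes (1.19), were higher as well. In all, 13 of 14 markers of pericytes and smooth muscle were higher and none lower, with a median log2 fold change of 1.27. The 1 marker not called was Mcam, at 342 against 333 CPM. In WT at 6 months Myh11 was at 275 and 274 CPM and Acta2 at 268 and 290 CPM, so the young KO sat with or above the young WT and not with the older WT. Aoc3, an amine oxidase of vascular smooth muscle, was at 11 CPM in both libraries against 1.25 and 1.31 CPM (log2 fold change 3.08), and Jph2, which couples membranes in muscle cells, at 11 and 11.2 against 2.38 and 1.39 CPM (2.63). Of 16 endothelial markers 5 were higher and 1 lower, 31.2% and 6.25% against 17.9% and 15.7% of all genes. The higher count fell without KO replicate 2 at 6 months or without WT replicate 2 at 18 months. Esam, a junction protein of endothelium, was higher (log2 fold change 1.30, SE 0.13) and Kdr, a receptor for vascular growth factor, lower (-0.67, SE 0.126).

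Markers of excitatory neurons and of GABA neurons were higher in KO at 6 months than in WT at 18 months. Of 17 excitatory neuron markers tested, 15 were higher and none lower (median log2 fold change 1.42). Against WT at 6 months 8 of the 17 were lower in the young KO and none higher. Camk2a, the calcium-dependent kinase of excitatory synapses, was at 113 and 117 CPM against 38.1 and 32.4 CPM (log2 fold change 1.72, SE 0.0916, adjusted p = 1.27e-12), with 136 CPM in both libraries of WT at 6 months. Slc17a7, a vesicular glutamate transporter, was at 20.0 and 23.5 CPM against 4.76 and 5.7 CPM (2.03, SE 0.18). For these 2 genes the young KO lay near the young WT. The enzymes of GABA synthesis behaved otherwise. Gad1 was at 14.4 and 15.0 CPM in KO at 6 months and 11.4 and 13.9 CPM in WT at 18 months, both far below the 125 and 132 CPM of WT at 6 months. Its log2 fold change between KO at 6 months and WT at 18 months was 0.20 (95% interval -0.09 to 0.48, adjusted p = 0.292). Gad2 was higher in the young KO, at 8.59 and 6.92 against 3.89 and 2.62 CPM (1.31, SE 0.239, adjusted p = 0.000123). Dlx1 (1.91), a transcription factor of interneurons, was higher too, and 8 of 11 markers of GABA neurons were called higher (5 without WT replicate 2 at 18 months).

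Synaptic and channel genes showed the same picture with both directions present. Of 44 genes of synaptic vesicles and release, 30 were higher and 3 lower. Bsn, a scaffold of the release site, was at 89.8 and 100.2 CPM against 35.0 and 31.6 CPM (log2 fold change 1.52, SE 0.084), and Syt1, the calcium sensor of release, at 36.8 and 40.1 against 11.5 and 10.6 CPM (1.8, SE 0.122). The 3 lower genes were Sv2a (-0.39), a vesicle glycoprotein, Amph (-0.45), which acts in vesicle recycling, and Syt11 (-0.25). Among 40 transmitter receptors 22 were higher and 6 lower. The NMDA receptor subunits Grin1 (2.07) and Grin2b (1.78) and the AMPA receptor subunit Gria1 (1.26) were higher, and the AMPA receptor subunit Gria4 (-0.56) and the glycine receptor subunit Glrb (-0.58) lower. Of 41 voltage-gated channels 27 were higher and 4 lower: the calcium channel Cacna1g (1.67) and the sodium channel Scn8a (1.10) were higher, and the potassium channels Kcna1 (-0.40), Kcna6 (-0.42) and Kcnq3 (-0.46) and the calcium channel subunit Cacnb4 (-0.52) lower. Immediate early genes were higher in 17 of 29 cases and lower in 1. Fos was at 44.5 and 48.2 CPM against 20.3 and 20.2 CPM (1.20, SE 0.121), and Egr1 at 16.5 and 17.8 against 2.76 and 3.85 CPM (2.32, SE 0.194). The lower one was Sgk1 (-0.40), a kinase induced by glucocorticoids. Against WT at 6 months most calls in these lists were lower in the young KO. They were 29 lower and 5 higher for synaptic vesicles and release, and 31 and 2 for receptors. For channels they were 31 and 7, and for immediate early genes 11 and 4. Excitatory neuron markers, which summed to 469 ± 12 CPM in the young KO and 238 ± 1.02 CPM in the older WT, moved with these lists, and their part in them was not tested.

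Several markers of interneurons went both ways. In the parvalbumin interneuron list 7 of 16 were higher (fewer without WT replicate 2 at 18 months) and 3 lower. These shares were 43.8% and 18.8%, against 17.9% and 15.7% of all genes, so the lower share was near that of all genes. The fast potassium channels Kcnc1 (1.05) and Kcnc2 (1.46) were higher, while Kcna1, Erbb4 (-0.35), a neuregulin receptor, and Nek7 (-0.32) were lower. Among markers of interneurons of caudal origin 6 of 10 were higher (fewer without KO replicate 2 at 6 months), including Nr2f2 (1.51), a nuclear receptor of these cells. Prox1, which oligodendrocytes also express, was lower (-0.62, SE 0.068). The higher share was 60% and the lower share 10%, the latter under that of all genes. Of 5 somatostatin interneuron markers tested only Nos1 was called, at 3.55 and 4.42 CPM against 1.00 CPM in both libraries (1.97, SE 0.35). That share of 20% was near the share of all genes called higher. The long non-coding RNAs Meg3 (24 and 27 against 4.51 and 3.54 CPM, log2 fold change 2.69) and Snhg11 (148 and 139 against 31.1 and 33.6 CPM, 2.14), both abundant in neurons, were higher.

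Astrocyte genes were higher in the young KO, at levels between those of the 2 WT ages. Slc1a2, the main glutamate transporter of astrocytes, was at 3745 and 3668 CPM in KO at 6 months, 2137 and 2125 CPM in WT at 18 months and 5390 and 5335 CPM in WT at 6 months. The log2 fold change between the first 2 groups was 0.80 (SE 0.0451, adjusted p = 3.92e-12). Of 18 astrocyte markers 17 were higher, with a median of 0.85, and Glul, glutamine synthetase, was lower (-0.35, SE 0.0446). Gfap, the intermediate filament that astrocytes raise when reactive, was at 29.4 and 29.3 CPM against 12.5 and 14.2 CPM (1.12, SE 0.118). Transporters for glutamate and GABA uptake and recycling were higher in 9 of 16 cases, among them the GABA transporter Slc6a11 (1.17), and lower in 3, Glul, the glycine transporter Slc6a9 (-0.30) and the glutamine transporter Slc38a2 (-0.32). Notch pathway genes were higher in 12 of 21 cases and lower in none. These were receptors (Notch1, 0.63), the ligand Jag1 (0.94), the glycosyltransferase Lfng (1.05) and the target Heyl (1.66). Of 28 genes of perineuronal nets and matrix 12 were higher and 8 lower (5 without any one of KO replicate 1, KO replicate 2 and WT replicate 2). The lecticans Bcan (0.77) and Ncan (0.90) were higher, and Vcan (-0.52), Hapln2 (-0.46), a link protein of nodes, and the protease Adamts4 (-0.30) lower.

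Oligodendrocyte and myelin genes were lower in the young KO than in the older WT, but the difference was small beside their distance from the young WT. Mbp, myelin basic protein, was at 3995 and 4134 CPM in KO at 6 months, 6005 and 5867 CPM in WT at 18 months and 1774 and 1691 CPM in WT at 6 months. The log2 fold change of the young KO over the older WT was -0.55 (SE 0.0482, adjusted p = 4.21e-09). Against WT at 6 months, Mbp was 1.23 higher on the log2 scale in KO at 6 months and 1.78 higher in WT at 18 months; both values rest on the same reference libraries. Of 16 oligodendrocyte markers 15 were lower and none higher (median -0.41). The marker not called was Mobp (log2 fold change -0.12, adjusted p = 0.057). Of 34 myelin genes 30 were lower and none higher (median -0.41). All 34 were higher in the young KO than in the young WT, and all 34 were higher in the older WT than in the young WT. The oligodendrocyte genes Ermn (-0.80), Anln (-0.97), a septin partner of myelin, and Aspa (-0.74), which cleaves N-acetylaspartate, had larger differences than Mbp. Iron and haem genes went both ways, with 5 of 14 lower (3 without KO replicate 2 at 6 months) and 3 higher, among them the reductase Steap3 (1.25). The lower and higher shares of the iron and haem list were 35.7% and 21.4%, against 15.7% and 17.9% of all genes tested. Fth1, the ferritin heavy chain, was at 1506 and 1531 CPM against 2158 and 2035 CPM (-0.47, SE 0.0677), and Trf, transferrin, at 282 and 276 against 393 and 429 CPM (-0.56, SE 0.0606).

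Precursors of oligodendrocytes were low in both groups. Their 14 markers summed to 1468 ± 23.8 CPM in KO at 6 months and 1648 ± 33.4 CPM in WT at 18 months, against 3472 ± 5.41 CPM in WT at 6 months. In the young KO 5 markers were lower and 3 higher than in the older WT, 35.7% and 21.4% against 15.7% and 17.9% of all genes. Pdgfra, the growth factor receptor that defines these cells, was at 249 and 245 against 320 and 337 CPM (log2 fold change -0.41, SE 0.0556), and Enpp6, a marker of newly forming oligodendrocytes, at 78.8 and 69.7 against 132 and 125 CPM (-0.79, SE 0.0765). Cspg4, the NG2 proteoglycan of precursors and pericytes, was higher (0.44, SE 0.0604), as were Sox11 (0.89) and Sox4 (0.59), transcription factors of immature cells.

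Genes known to rise in ageing glia included 2 of the 3 largest decreases among the genes named. C4b (ENSMUSG00000073418, chromosome 17, 34728380 to 34743882 in mm10), a complement component, was at 81.7 and 90.5 CPM in KO at 6 months and 338 and 358 CPM in WT at 18 months. Its log2 fold change was -2.02 (SE 0.0651, adjusted p = 1.59e-16), a 4.05-fold lower level, while WT at 6 months was at 39.2 and 40.1 CPM. C4b in the young KO was thus above the young WT (log2 fold change 1.12, adjusted p = 8.79e-11) and well below the older WT. C4b has a near-identical copy in the mouse genome, and its value is uncertain to that extent. Serpina3n (ENSMUSG00000021091, chromosome 12, 104406729 to 104414329), a protease inhibitor of reactive glia, was at 6.41 and 6.21 CPM against 29.3 and 28.5 CPM (-2.19, SE 0.154, adjusted p = 1.12e-10). Unlike C4b, it lay below the 10.0 and 7.96 CPM of WT at 6 months. Apod, a lipid carrier, was at 1356 and 1342 against 2441 and 2510 CPM (-0.88, SE 0.0531), and Il33, an alarmin of oligodendrocytes and astrocytes, at 537 and 509 against 915 and 879 CPM (-0.78, SE 0.0549). Over the whole list of 25 tested genes 11 were lower and 5 higher, 44% and 20% against 15.7% and 17.9% of all genes. The list did not rise as a whole with age in these libraries. In WT at 18 months against WT at 6 months 11 of the 25 were higher and 7 lower, beside 28.2% and 30.8% of all genes. In the young KO against WT at 6 months 8 were higher and 9 lower. Those higher in the young KO than in the older WT were Gfap, Axl (1.02), Lgals3bp (0.60) and the myeloid genes Lcn2 (3.49) and Lyz2 (2.05).

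Clic5 (ENSMUSG00000023959, chromosome 17, 44188584 to 44280172), a chloride channel protein linked to the cell cortex, had the largest named decrease. It was at 6.3 and 8.48 CPM in KO at 6 months and 39.1 and 36.5 CPM in WT at 18 months, with 4.28 and 6.17 CPM in WT at 6 months and 34.2 and 33.6 CPM in KO at 18 months. The levels of Clic5 followed the 2 ages and not the 2 genotypes, and the log2 fold change was -2.35 (SE 0.148, adjusted p = 2.15e-11). Cdh8, a cadherin (4.12 and 5.13 against 18.8 and 16.8 CPM, -1.93), was lower as well, as were Slc13a1, a sulfate transporter (-1.42), Flnc, filamin C (-1.37), and Eya4 (-1.36). Pcdhb11, a clustered protocadherin (-1.71), was lower in the young KO than in all other groups, at 3.32 and 3.94 CPM against 7.41 to 17.1 CPM in the other 6 libraries; protocadherins of this cluster are near copies of each other.

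**Figure D4:**
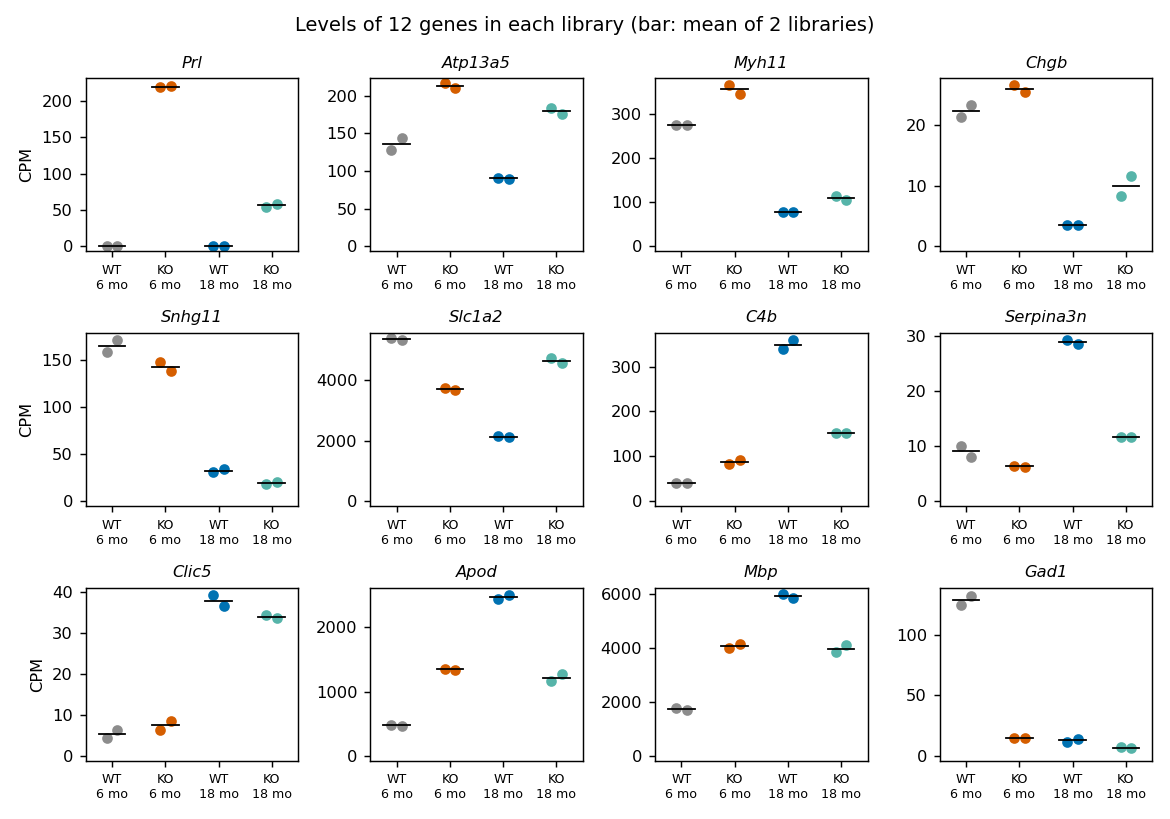
Levels in CPM of 12 named genes in each of the 8 libraries, 1 point per library with the group mean as a bar, each panel from 0. Myh11, Chgb and Snhg11 in KO at 6 months lie near WT at 6 months, Gad1 near WT at 18 months, Slc1a2, C4b, Apod and Mbp between the 2 WT ages, and Prl is at 0 in both WT groups.

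Few microglial markers were called between KO at 6 months and WT at 18 months. Their sums were 208 ± 2 and 219 ± 9.97 CPM, and of 17 markers tested 1 was lower and none higher (2 lower without WT replicate 1 at 18 months, 2 higher without WT replicate 2). The lower one was Ctss, a lysosomal protease, at 13.5 and 12.2 CPM against 19.7 and 21.8 CPM (log2 fold change -0.70, SE 0.164, adjusted p = 0.00171). Csf1r, the receptor on which microglia depend, was at 33.0 against 28.7 CPM (0.20, adjusted p = 0.2). In antigen presentation the class II genes stood out: Cd74, the invariant chain, was at 11.5 and 12.3 CPM against 1.5 and 1.31 CPM (3.09, SE 0.254, adjusted p = 1.37e-09), and H2-Aa, H2-Eb1 and H2-Ab1 were higher with log2 fold changes of 2.87, 2.91 and 2.27. Class I H2-D1 (-0.46) and the interferon-induced Ifit2 (-0.88) were lower. Over the 33 tested genes of interferon response and antigen presentation 6 were higher and 4 lower (2 without KO replicate 1 at 6 months or WT replicate 2 at 18 months), 18.2% and 12.1%, near the 17.9% and 15.7% of all genes.

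Among genes of protein folding and turnover more were lower than higher in the young KO. Of 44 chaperones 28 were lower and 6 higher, with a summed level of 5767 ± 35.9 CPM against 7390 ± 9.9 CPM. Hsp90ab1, a cytosolic chaperone, was at 711 and 729 CPM against 1011 and 1002 CPM (log2 fold change -0.48, SE 0.0545), and Hspa5, the main chaperone of the endoplasmic reticulum, at 309 and 290 against 415 and 447 CPM (-0.53, SE 0.0579). The heat-inducible Hspa1a (0.94) and Hspa1b (0.84), near copies of each other, were higher. Proteasome and ubiquitin genes were lower in 22 of 45 cases and higher in 1, Uchl1 (none without KO replicate 1 or WT replicate 1). This count depended on single libraries, at 10 without KO replicate 1, 14 without KO replicate 2 and 8 without WT replicate 2 at 18 months. Lysosomal genes were lower in 24 of 54 cases (14 without WT replicate 2) and higher in 3, with Lamp1, a membrane protein of lysosomes, at 609 and 630 against 844 and 874 CPM (-0.47, SE 0.0514). Autophagy genes were lower in 18 of 44 cases, such as Atg4c (-0.72), and higher in 2 (none without KO replicate 2, 1 without WT replicate 1). Genes of endocytosis were lower in 29 of 62 cases (18 without KO replicate 2), such as the sorting nexin Snx1 (-0.63), and higher in 5 (3 without KO replicate 1 or 2), such as the neuronal dynamin Dnm1 (1.16). Oligodendrocyte markers, at 33113 against 44065 CPM, moved with these lists. Their part in these counts was not tested.

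Respiratory chain and ribosomal genes were lower in fewer cases. Of 76 nuclear genes of the respiratory chain 20 were lower and none higher, and Ndufs1, a subunit of complex I, was at 76.3 and 77.4 against 96.2 and 94.4 CPM (log2 fold change -0.31, SE 0.071). Without 1 library this count was 4 (KO replicate 2 or WT replicate 2), 7 (KO replicate 1) or 12 (WT replicate 1). Of 75 cytosolic ribosomal proteins 10 were lower and none higher (6 without KO replicate 2, 5 without WT replicate 2), such as Rpl4 (-0.42). With 13.3% of its members lower, the ribosomal list was near the 15.7% of all genes. Of 7 tested genes encoded by mitochondrial DNA 3 were higher and none lower, but the WT libraries differed among themselves (mt-Nd2 at 282 and 152 CPM), and the count was 1 without KO replicate 1 or WT replicate 2 and 6 without WT replicate 1.

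The machinery of DNA methylation differed little. Of 30 genes tested 3 were higher and 6 lower, 10% and 20% against 17.9% and 15.7% of all genes. The dioxygenase Tet2 was at 197 and 194 against 162 and 151 CPM (log2 fold change 0.32, SE 0.0615), the methyl-CpG binding repressors Zbtb4 (0.40) and Zbtb33 (-0.52) differed in opposite directions, and Gadd45g was higher (0.97, SE 0.182). Pcna, which guides Dnmt1 to replicating DNA, was lower (-0.50, SE 0.136). Clock genes were higher in 11 of 21 cases and lower in 1 (none without KO replicate 2), with Npas2 at 27.1 and 27.9 against 10.8 and 11.1 CPM (1.33, SE 0.125) and Clock itself lower (-0.34). In cholesterol synthesis 9 of 23 genes were higher (4 without KO replicate 2) and 3 lower (1 without KO replicate 1). Among p53 targets and cell cycle inhibitors 3 of 19 were higher and 3 lower, 15.8% each way and near the 17.9% and 15.7% of all genes. They were Cdkn1a (0.81), Perp (1.21) and Sesn2 (0.44) against Eda2r (-1.32), Rb1 (-0.25) and Ccng1 (-0.29), with 1 higher without KO replicate 2 and 1 lower without WT replicate 1.

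Where the young KO stood between the 2 WT ages was summarised over the lists. In 12 of 17 marker lists the summed level of KO at 6 months lay between WT at 6 months and WT at 18 months, and in 9 of these 12 it was nearer to WT at 18 months. It lay above both for pericytes and smooth muscle, leukocytes and pituitary, and below both for oligodendrocyte precursors and fibroblasts. For fibroblasts, however, the libraries of KO at 6 months (363 and 354 CPM) overlapped those of WT at 18 months (360 and 379 CPM). Of the 11 fibroblast markers tested, 8 were higher and 1 lower in the young KO than in the older WT. In the function lists it lay between in 19 of 24, and in 11 of these 19 it was nearer to WT at 18 months. The summed level of a list follows its most abundant members, and the lists share some genes.

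A second comparison of the crossed kind, KO at 18 months against WT at 6 months, shares no library with KO at 6 months against WT at 18 months and has age reversed. It called 10086 genes (55.4%, with 26.5% higher and 28.9% lower), 8.91% of those tested being higher and 12.9% lower by at least 2-fold, and 4777 genes were called in both. Genes with the same genotype on the higher side both times were counted apart from genes with the same age on the higher side both times. For 2113 genes (11.6% of those tested) the 18-month group was higher both times, which is 73.9% of the 2861 genes lower in the young KO and 43.8% of the 4829 genes higher in the old KO. For 2429 genes (13.3%) the 18-month group was lower both times, 74.4% of 3265 and 46.2% of 5257. KO was the higher group both times for 100 genes (0.549%), 3.06% of 3265 and 2.07% of 4829, and the lower group both times for 135 genes (0.742%), 4.72% of 2861 and 2.57% of 5257. A further 1349 genes were called only in KO at 6 months against WT at 18 months. Every 18-month library was above every 6-month library for 1478 of the 2113 genes, and below for 1784 of the 2429. The smaller sets moved with single libraries: the 100 genes became 51 without KO replicate 1 and 64 without WT replicate 2, and the 135 became 71, 70 and 54 without KO replicate 1, KO replicate 2 and WT replicate 2. The 2113 became 1377 without KO replicate 2.

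**Figure D5:**
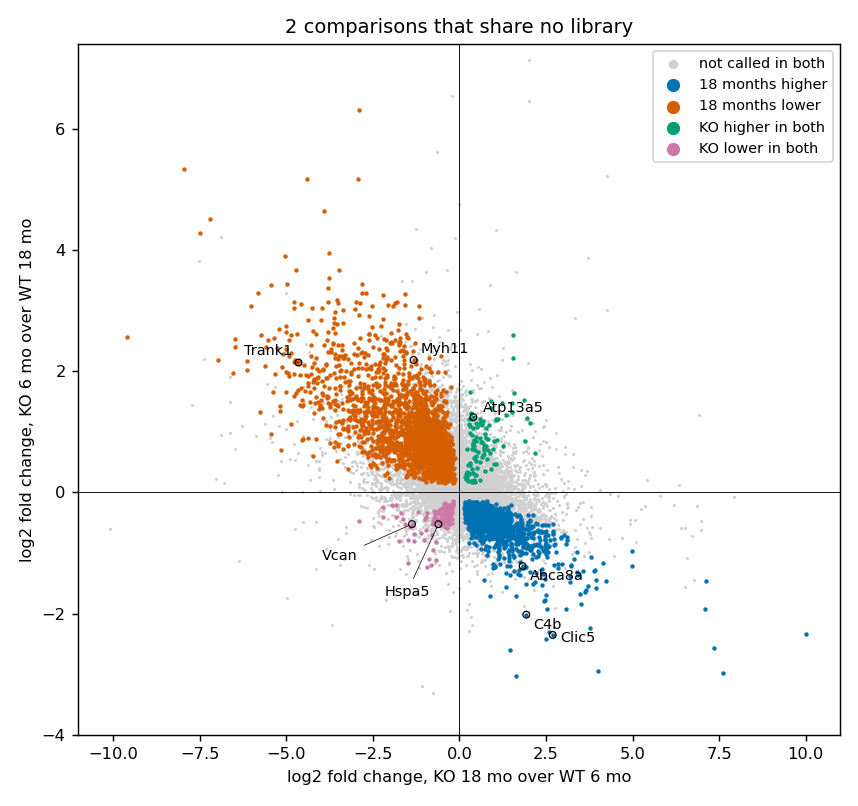
Log2 fold change of KO at 6 months over WT at 18 months against that of KO at 18 months over WT at 6 months, 1 point per gene, without Prl. Genes called in both lie in the upper left (2429, 18-month group lower in both) and the lower right (2113, 18-month group higher in both). The upper right holds 100 (higher in KO in both) and the lower left 135 (lower in KO in both).

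Beside Prl, the genes higher in KO in both comparisons included 2 of the 14 pericyte and smooth muscle markers, Abcc9 and Kcnj8. In KO at 18 months against WT at 6 months, where age also differed, that list had 3 higher and 6 lower. Against WT of the same age, 6 of the 14 were higher and 2 lower in KO at 6 months. At 18 months 9 were higher and 2 lower in KO. Atp13a5, a pericyte ATPase, was at 217 and 210.2 CPM in KO at 6 months, 90.8 and 89.8 CPM in WT at 18 months, 183 and 176 CPM in KO at 18 months and 127 and 144 CPM in WT at 6 months. Every KO library was above every WT library. Abcc9 and Kcnj8, which together form a potassium channel of pericytes, also had every KO library above every WT library. Abcc9 was at 182 and 174 against 75.5 and 78.7 CPM (log2 fold change 1.20, SE 0.066), and the sum of the pericyte list was 3297 and 2356 CPM in the KO groups against 3041 and 1582 CPM in the WT groups at 6 and 18 months. Of the 100 genes 51 were protein-coding (51%), against 75.6% of all genes tested. The genes lower in KO in both were protein-coding in 132 of 135 cases (97.8%). Among them were 7 of the 44 chaperones (Hspa5, Hspa8, Calr, Pdia4, Pdia6, Cct5 and Stip1) and Xbp1, the transcription factor that induces folding genes of the endoplasmic reticulum. Xbp1 was at 82.8 and 87.3 CPM in KO at 6 months and 113 and 120.5 CPM in WT at 18 months (-0.46, SE 0.0708), with 84.4 and 78.4 CPM in KO at 18 months and 115 and 123 CPM in WT at 6 months, so KO and WT did not overlap at either age. The set also held 13 of 76 respiratory chain genes, 6 of 75 ribosomal proteins and the precursor genes Pdgfra, Vcan, Lhfpl3 and Tnr. All but 1 of the 135 differed by less than 2-fold in at least 1 of the comparisons.

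The genes with the 18-month group on the same side in both crossed comparisons included those already named for glia, vessels and synapses. Abca8a, a lipid transporter of oligodendrocytes, was at 175 and 163 CPM in KO at 6 months, 385 and 399 CPM in WT at 18 months, 373 and 347 CPM in KO at 18 months and 99.1 and 104 CPM in WT at 6 months (log2 fold change -1.21, SE 0.0611, between the first 2 groups). Of the 34 myelin genes 30 and of the 16 oligodendrocyte markers 15 belonged to the set with the 18-month group higher both times. Between the KO groups, however, the oligodendrocyte sum was 33113 CPM at 6 months and 30130 CPM at 18 months. Of the 16 markers 7 were higher and 2 lower in the young KO than in the old KO. The myelin sum was 44306 and 41789 CPM, with 12 of 34 genes higher and 7 lower, so neither sum rose with age within KO. Trank1, a neuronal gene, was at 93.1 and 97.1 CPM in KO at 6 months, 20.9 and 21.9 CPM in WT at 18 months, 10.6 and 9.66 CPM in KO at 18 months and 266 and 243 CPM in WT at 6 months (2.14, SE 0.0865). The set with the 18-month group lower both times held 30 of 44 synaptic vesicle genes, 26 of 41 voltage-gated channels and 17 of 29 immediate early genes. It also held 16 of 18 astrocyte markers and 14 of 17 excitatory neuron markers, but 6 of 14 pericyte and smooth muscle markers. Between the KO groups the astrocyte sum was higher at 18 months (17246 CPM) than at 6 months (14634 CPM). There 12 of the 18 astrocyte markers were lower and none higher in the young KO. Of the 17 excitatory neuron markers 14 were higher and 1 lower in the young KO than in the old KO.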

How the data were processed

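RNA-seq counts per gene were taken as deposited, 1 file per library with 55573 Ensembl gene IDs. The authors made these raw counts on build mm10, and the submitters' processing notes name featureCounts 1.5.0-p1, STAR 2.5.2a and CASAVA 1.8.2. The annotation, strand and multi-mapping settings were not given in the sources used here. Symbols came from GENCODE M21 (55394 IDs, 99.7%).

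All 8 libraries were fitted in 1 model of 4 groups with edgeR 4.0.16 in R 4.3.3 (TMM, filterByExpr with a minimum count of 10, quasi-likelihood F test, Benjamini-Hochberg over 18205 genes, threshold 0.05; common biological coefficient of variation 0.0539). SE is the absolute log2 fold change divided by the square root of F. A group with 0 reads was set to a floor of 3 reads over the group; floors and intervals cover counting error only. Groups came from the titles. Total counts were 6008175 to 13551218 per library, and their counting error is part of the spread the test uses. In simulated data 200 genes were changed in KO at 6 months before filtering, and 17497 genes were tested. Every gene had the common dispersion, and all other genes had equal means in the 4 groups. In KO at 6 months against WT at 18 months, 62.7% of 67 tested 1.5-fold changes, 86.4% of 66 2-fold changes and 100% of 64 4-fold changes were recovered. These rates hold for that setting, which is simpler than the data.

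The groups compared and the 41 gene lists (1117 entries, 2 without a gene in the files) were chosen with earlier results of these data known. Genes named were Dnmt1, Dnmt3a, Dnmt3b, Pvalb, Gad1, Gad2 and Prl, the 12 higher and 12 lower genes with the largest folds (at least 10 CPM in the higher group, no overlap between libraries, no clone or pseudogene name), up to 4 members per list and direction by p, and 6 genes per class of the crossed comparison. Other list members were named after their values were seen, as were the 3 promoters. Alternatives were other scalings, filters, DESeq2 1.42.0, a replicate block, thinning to equal depth, and fits without single libraries.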

Additional observations from a re-analysis of the deposited data

How the results depend on the processing

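With RLE or upper quartile scaling, no filter, thinning to equal depth, abundant RNAs left out, or only the 4 libraries fitted, each count of calls in KO at 6 months against WT at 18 months stayed within 1.5 times the reported one. A fit without WT at 6 months, chosen after seeing the data, called 6477 genes and kept 98.9% of the reported ones. DESeq2 called 4478 genes, 4472 of them among the reported 6126, and gave 84 lower genes of at least 2-fold in place of 127, 42 genes higher in KO in both crossed comparisons in place of 100, and 78 lower in place of 135. With a minimum count of 50 there were 854 higher and 55 lower genes of at least 2-fold, with 12749 genes tested. Leaving out 1 library gave 1713 to 2179 lower genes, 51 to 102 and 54 to 104 genes higher and lower in KO in both crossed comparisons, and 1377 to 1771 genes higher at 18 months in both; the cause was not tested. Among lists, DESeq2 gave 12 lower respiratory chain genes in place of 20, 5 ribosomal in place of 10, 5 matrix genes in place of 8, 3 higher endothelial genes in place of 5, 3 higher endocytosis genes in place of 5 and 1 mitochondrial gene in place of 3, which was 5 without the filter. DESeq2 also gave 1 higher autophagy gene in place of 2. Thinning gave 8 respiratory chain genes and 3 endothelial genes. A minimum count of 50 gave 4 higher leukocyte genes in place of 8, 3 caudal interneuron genes in place of 6, 3 interferon and antigen genes in place of 6 and 8 endocytosis genes in place of 5. No named gene reversed under any of these. Of the named genes 11 of 249 lost their call with DESeq2 and 9 to 19 without 1 library.

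Same-numbered replicates deviated together little, with correlations of deviations from -5.24e-06 to 0.0758. Whether they shared a preparation or a sequencing run was not tested. With the replicate block 6628 genes were called, 3415 higher and 3213 lower, and 99.8% of the reported calls were kept. Depth limits low genes most: of 12079 genes not called, 67.8% had an interval within 2-fold.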

Other observations

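Genes on the chromosome of the floxed allele were counted apart, since KO mice can carry sequence of the B6;129Sv stock around Dnmt1. Of 220 tested genes within 20 Mb of Dnmt1, 20% were higher and 16.8% lower in KO at 6 months than in WT at 18 months, against 17.9% and 15.7% of genes elsewhere. Higher in KO in both crossed comparisons were 4 of the 220 (1.82%), against 0.534% elsewhere, and lower 3 (1.36%), against 0.734%. No test was made of these shares.

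Genes of the Y chromosome were read in every library, with Ddx3y at 75.2 to 129 CPM and Uty at 32.9 to 69.5 CPM, and Xist had 2 to 14 reads per library. These genes were chosen after their values were seen. Ddx3y was at 104 and 87.0 CPM in KO at 6 months and 129 and 116 CPM in WT at 18 months.

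Imprinted and other long non-coding RNAs of neurons lay together: Rian, from the same imprinted region as Meg3, was at 10.1 and 11.8 CPM in KO at 6 months, 4.26 and 2.85 CPM in WT at 18 months and 10.0 and 12.2 CPM in WT at 6 months (log2 fold change between the first 2 groups 1.67, SE 0.242, edgeR adjusted p = 6.45e-06). Miat, another neuronal long non-coding RNA, was at 45.8 and 55.5 CPM, 17.4 and 17.5 CPM, and 55.5 and 62.1 CPM in the same order (1.54, SE 0.123, adjusted p = 9.1e-10). Neat1, the scaffold RNA of nuclear paraspeckles, went the other way, at 1336 and 1266 CPM, 1834 and 1708 CPM, and 588 and 549 CPM (-0.44, SE 0.0572, adjusted p = 1.31e-06).

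Fibroblast genes gave a further case in which the sum and the members parted. The list summed to 359 ± 6.62 CPM in KO at 6 months and 370 ± 14 CPM in WT at 18 months, yet 8 of its 11 tested members were higher and 1, Pdgfra, was lower. Col6a1, a chain of collagen VI, was at 12.4 and 9.67 CPM against 1.5 and 1.15 CPM (log2 fold change 3.08, SE 0.259, adjusted p = 1.83e-09), with 50.7 CPM in both libraries of WT at 6 months. Col1a2 (1.59) and Col3a1 (2.24), fibrillar collagen chains, were higher too. Pdgfra is also the marker of oligodendrocyte precursors and made up most of the sum.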
